A study of Mus musculus with 18 samples.

Results

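This account describes the genes that differed between mouse embryonic fibroblasts (MEFs) with wild-type eIF2α (WT) and MEFs with eIF2α S51A after 15 min of hydrogen peroxide. The members are all 8308 entries of the authors' deposited 15 min table, out of 10133 distinct symbols in the 3 tables of the series. There are 7555 entries in the untreated table and 6119 in the one for 120 min. An entry is a gene with a called difference between WT and S51A at that time, with a q-value (a p-value adjusted for the number of genes tested) of at most 0.05. Genes that were not called are not in the tables, so a missing gene may have been equal, unmeasured or left out.

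Both lines were immortalized, and RNA was selected by its poly(A) tail before sequencing. The groups compared here were Wild-Type cells and eIF2aS51A cells, each given peroxide at 500 µM for 15 min. Cells of the same lines without treatment, and cells given the same dose for 120 min, serve for comparison. The labels name 3 samples per group, 18 in all, but the design text speaks of duplicates, and nothing says whether the samples were separate cultures. Each genotype was 1 line, so an effect of S51A and any other difference between the lines cannot be told apart. The tables give 1 value per line and time. It is an FPKM, the number of fragments scaled to transcript length and library size. The spread between samples and the sequencing depth are therefore unknown, no SD can be given, and "higher" or "lower" below means that the authors called the gene in S51A against WT at that time. Changes between times have no test at all. Each time may also have been normalized separately, so levels of 1 line at different times may differ in scale.

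eIF2 is the factor that brings the initiator tRNA to the ribosome, and eIF2α is its regulatory subunit. Stress kinases phosphorylate a serine near its start, which slows initiation on most mRNAs and favours a few, among them the mRNA of the transcription factor ATF4. This response is called the integrated stress response, and alanine in place of that serine blocks it. Peroxide is an oxidant that also acts through MAP kinases, the transcription factor NRF2 and the elongation factor kinase eEF2K, within minutes for kinases and over hours for most transcripts.

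The codon that the S51A allele changes is shown because it is the only stated genetic difference between the lines. It is codon 52 of the Eif2s1 coding sequence when the initiator methionine is counted, and lies in exon 2 of 8 at chr12:78866668-78866694 on the plus strand of GRCm38 (mm10). The reference sequence of 27 bases from GENCODE M21 has the serine codon in capitals.
Eif2s1: cttagtgaattaTCCagacgacgtatc
The mRNA of Eif2s1 itself was listed at 90.5 FPKM in WT and 45.6 in S51A at 15 min, 1.99-fold lower. It was 91.8 and 45.3 FPKM in untreated cells and 97.7 and 57.7 at 120 min, so the difference was of similar size without peroxide.

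Of 13 fibroblast markers 11 were listed at 15 min, among them Vim (1652 FPKM in WT and 1136 in S51A) and Col1a1 (265 and 1090). Of the 11, 6 were higher in S51A and 5 lower. Dcn (49.5 and 9.13) and Thy1 (21.0 and 10.9) were lower, like Vim, and Pdgfra (3.61 and 5.94) was higher, like Col1a1. Fap and Lum were not listed. A marker is listed only where the lines were called different, so these counts cannot show what the cells are. Of 27 markers of other cell types 5 were listed. They were Tubb3 (16.4 and 74.5 FPKM), Nes (55.7 and 32.2), Fabp4 (9.06 and 22.0), Lpl (0.920 and 0.172) and Des (0.149 and 0.688), and Nes and Tubb3 also occur in cultured fibroblasts. Markers of epithelium, endothelium, blood and pluripotent cells were not listed, which does not show that they were absent.

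At 15 min 4147 of the 8308 entries, 49.9%, were higher in S51A and 4161 were lower. At least a 2-fold difference was seen in 2706 entries (32.6%), counting those with a group at 0. Apart from Abi3bp and 3830403N18Rik, given further on, the genes with the largest ratios were hardly expressed in 1 line and were listed before peroxide as well. Loxl2, a collagen crosslinking enzyme, stood at 0.00969 FPKM in WT and 52.7 in S51A at 15 min, and at 0.0261 and 56.5 in untreated cells. Ogn (osteoglycin, a matrix proteoglycan) stood at 0.432 and 237, Cd34 at 0.240 and 64.9, Cbr2 at 0.189 and 49.9 and Lrrc75b at 0.0587 and 14.6 FPKM. In the other direction, the BMP antagonist Grem1 stood at 347 FPKM in WT and 2.14 in S51A. Brinp1 (14.4 and 0.0480), Nkx3-2 (13.5 and 0.0540) and Tmem47 (16.8 and 0.126) were as one-sided. All of these were listed in untreated cells in the same direction.

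The 15 min table lists 1934 entries that the untreated table lacks. The untreated table starts at the symbol Aacs and holds no symbol that sorts before it, whereas the 15 min table holds 201 such symbols, 181 of them starting with a digit. These 201 cannot be compared, so 3830403N18Rik (133 FPKM in WT and 0.233 in S51A) and A630033H20Rik (5.17 and 2.23) say nothing about time. Of the 8107 entries whose symbols the untreated table covers, 1733 (21.4%) were listed at 15 min and not before. They are called new entries below, which says only that the untreated table does not list them. Among them 892 (51.5%) were higher in S51A and 841 were lower.

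The new entries were mostly modest differences of well expressed genes. Leaving out those with a group at 0, the median difference was 1.36-fold (quartiles 1.25 and 1.54, 1688 entries), against 1.72-fold (quartiles 1.40 and 2.43) for the 6302 entries listed at both times. At least a 2-fold difference was seen in 176 (10.4%) of the new entries and 2326 (36.9%) of those listed at both times. The median level in the line with more was 15.6 FPKM for new entries and 18.4 for the others. By the authors' deposited table, a q-value over 0.01 was given to 445 new entries (25.7%), against 414 (6.50%) of those listed at both times, so the new entries lay nearer the threshold. The untreated table in turn lists 1181 entries that the 15 min table lacks, with a median difference of 1.40-fold.

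The direction of the new entries went with the length of the transcript. The longest annotated transcript had a median of 2.31 kb (quartiles 1.57 and 3.25, 870 genes) in new entries higher in S51A and 5.25 kb (quartiles 3.91 and 7.20, 827 genes) in new entries lower in S51A. Of 383 new entries with transcripts under 2 kb, 352 (91.9%) were higher. Of 961 between 2 and 6 kb, 491 (51.1%) were higher, and of 353 at 6 kb or more, 27 (7.65%) were. Coding lengths differed likewise, with medians of 0.981 and 2.48 kb, while the median level was 15.4 FPKM in the higher and 15.6 in the lower entries. Among new entries of at least 2-fold the split was less steep, with 81.2% higher under 2 kb and 41.4% at 6 kb or more. With the median transcript length in place of the longest, 65.5% of as many of the shortest and 18.1% of as many of the longest were higher. Entries that were listed only in untreated cells had the reverse order, with a median of 5.70 kb in the 559 higher and 2.00 kb in the 622 lower ones. In entries listed at both times the medians were 3.70 kb for the higher and 3.27 kb for the lower.

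**Figure D1:**
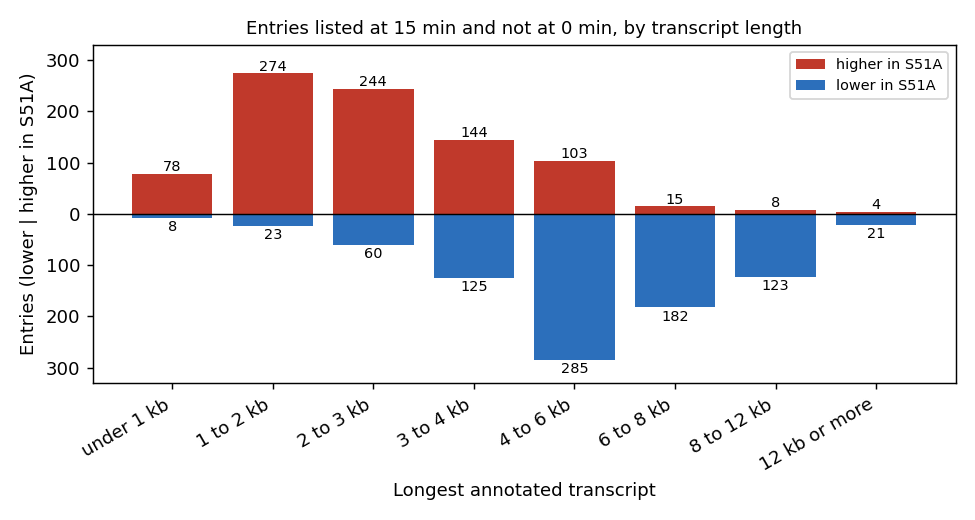
Number of entries listed at 15 min and not in untreated cells, by length of the longest annotated transcript. Bars upward (red) count entries higher in S51A and bars downward (blue) entries lower in S51A, with each count at its bar. Of transcripts of 1 to 2 kb, 274 were higher and 23 lower, and of 8 to 12 kb, 8 were higher and 123 lower.

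Genes listed at both times showed the same gradient, and it had a share from each line. Across 6301 genes with no group at 0, the log2 ratio of S51A to WT moved between untreated cells and 15 min by a median of 0.01, with quartiles of -0.19 and 0.21. For 168 genes with transcripts under 1 kb the median move of the ratio was 0.45, made of -0.29 in the WT level and 0.17 in the S51A level. For 63 genes at 12 kb or more it was -0.76, made of 0.45 in WT and -0.34 in S51A. Genes of 3 to 4 kb had a median of 0.00.

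Across the 6115 genes with a length, the move of the ratio had a Pearson r of -0.55 with log2 of the longest transcript, of -0.51 with log2 coding length (6050 genes) and of -0.32 with log2 of the median transcript length. It had an r of 0.12 with GC content and of 0.21 with the mean log2 level. The move of WT alone had an r of 0.45 with log2 of the longest transcript and that of S51A alone had -0.45. These are descriptions across genes, which share the same libraries and are not independent replicates. The gradient held on both sides of the untreated comparison. Of genes higher in S51A before peroxide, the ratio moved up in 298 of 371 (80.3%) under 2 kb and in 57 of 545 (10.5%) at 6 kb or more. Of genes lower before, it moved up in 643 of 693 (92.8%) and 55 of 326 (16.9%). RNA integrity and library values per sample were not analysed here, and the part of transcript length in the results below was not tested. Lengths are given beside the gene groups. Their counts of new entries are to be read against 51.5% higher over all new entries and the shares by length above.

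**Figure D2:**
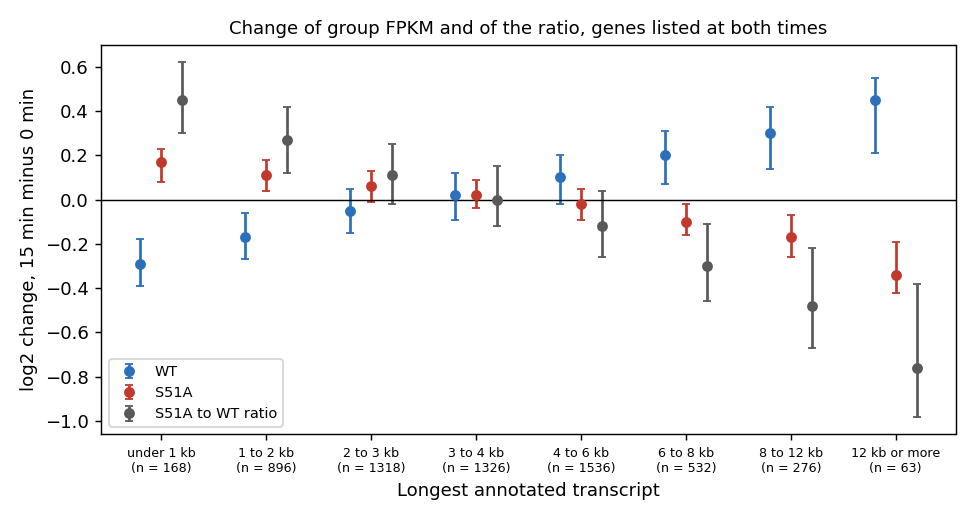
Move of the group level between untreated cells and 15 min of peroxide, as a log2 difference, for genes listed at both times, by length of the longest transcript. Points are medians over genes, bars run from the lower to the upper quartile, and the number of genes is under each class. WT (blue) climbs from -0.29 to 0.45 with length, S51A (red) declines from 0.17 to -0.34, and their ratio (grey) from 0.45 to -0.76.

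In the list of eIF2, its exchange factor eIF2B and its kinases and phosphatases, 13 of 22 genes were listed at 15 min, 4 higher and 9 lower in S51A, against 4 and 7 in untreated cells. Of those at least 2-fold apart 2 were higher and 1 was lower. New entries were 3 of the 13, near the 21.4% over all entries, and all 3 were lower. Eif2ak1, the heme-regulated eIF2α kinase HRI, stood at 42.8 FPKM in WT and 33.6 in S51A (1.27-fold). Eif2s3x, the gamma subunit of eIF2, stood at 16.2 and 12.9 FPKM (1.26-fold), and Ppp1r15b (CReP, which directs a phosphatase to eIF2α in unstressed cells) at 33.4 and 27.3 (1.22-fold). Eif2ak1 and Ppp1r15b have longest transcripts of 4.33 and 5.59 kb, in a class (4 to 6 kb) where 26.5% of all new entries were higher, and Eif2s3x has one of 3.65 kb, in a class (3 to 4 kb) where 53.5% were. None of the 3 was listed at 120 min.

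The kinase genes Eif2ak2 and Eif2ak3 kept the direction they had before peroxide. Eif2ak2 (PKR, activated by double-stranded RNA) was 14.1 FPKM in WT and 23.6 in S51A, against 10.8 and 25.8 in untreated cells. Eif2ak3 (PERK, the kinase of the endoplasmic reticulum) was 3.12 and 11.2, against 2.81 and 12.2. Eif2ak4 (GCN2, activated by uncharged tRNA) was not listed. Eef2k, the kinase that inactivates elongation factor eEF2, was lower at 4.59 and 2.33 FPKM, against 4.14 and 2.23 before, and Eef2 was not listed. Of 48 other initiation and elongation factors 42 were listed, 7 higher and 35 lower, against 7 and 37 before. The only new one was Eif3a, the largest eIF3 subunit (195 and 158 FPKM, 5.12 kb).

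ATF4 target genes were mostly listed at both times. Of 44 genes of the integrated stress response, 11 were higher and 20 lower at 15 min, against 12 and 19 in untreated cells, and the median log2 ratio was -0.38 after -0.57, against -0.21 and -0.28 over all entries. Atf4 itself was 311 FPKM in WT and 267 in S51A, 1.16-fold lower, against 1.27-fold before. Chac1, which degrades glutathione, was 19.4 and 3.68 FPKM (5.28-fold lower, against 3.81-fold before). The pseudokinase gene Trib3 was 9.06 and 3.41 (2.66-fold lower, against 3.18-fold before). Asns (asparagine synthetase) was 99.7 and 54.2 (1.84-fold lower, against 2.08-fold before). New entries were Slc3a2, a subunit of the cystine and leucine carriers (67.2 and 84.4 FPKM, higher), Gpt2, an alanine transaminase (20.0 and 16.3, lower), and Ppp1r15b, with a median longest transcript of 3.64 kb. Slc3a2 was in the other direction at 120 min, at 146 and 77.7 FPKM. Ddit3 and Ppp1r15a, both ATF4 targets, were not listed at 15 min. Of 38 cytosolic aminoacyl-tRNA synthetase symbols 1 was higher and 17 lower, against 1 and 18 before, with no new entry.

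Immediate early genes, which are transcribed within minutes of a stimulus without new protein synthesis, were listed for 59 of 73 symbols. At 15 min 19 were higher and 40 lower in S51A, against 20 and 36 before. The new entries were 4 lower and 2 higher, while 51.5% of all new entries were higher. Dusp1, a phosphatase that switches off MAP kinases, stood at 29.9 FPKM in WT and 20.4 in S51A. Nr4a2, an orphan nuclear receptor, stood at 6.36 and 4.26, Egr3 at 1.13 and 0.753 and the clock gene Per2 at 0.993 and 0.646. The differences ran from 1.46-fold for Dusp1 to 1.54-fold for Per2, and the transcripts from 2.31 to 5.83 kb. Jund, a partner of Fos proteins, was higher (49.9 and 67.6 FPKM, 1.67 kb), as was the growth arrest gene Gadd45a (18.3 and 21.6 FPKM, 1.22 kb). Jund was picked after its values were seen.

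The promoters of Dusp1 and Nr4a2 are shown because these new entries were lower together and both genes are known targets of CREB. Capitals mark the cAMP response element half-site TGACG or its other strand CGTCA, a motif chosen after the values were seen. The Dusp1 stretch of 100 bases is at chr17:26508573-26508672 and the Nr4a2 stretch of 110 bases at chr2:57124104-57124213, both on the minus strand of GRCm38, from RefSeq.
Dusp1: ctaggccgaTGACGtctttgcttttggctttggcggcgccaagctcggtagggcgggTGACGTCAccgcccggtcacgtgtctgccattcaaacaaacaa
Nr4a2: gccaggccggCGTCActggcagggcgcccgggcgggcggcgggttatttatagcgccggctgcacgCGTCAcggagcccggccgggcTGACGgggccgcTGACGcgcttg
The Dusp1 stretch holds the full palindrome TGACGTCA at position -143 from the start of the gene, in which both half-site orientations overlap. Of 27025 RefSeq promoters, 439 (1.62%) hold the palindrome and 4827 (17.9%) hold a half-site on either strand in the 250 bases before the start. A match is a string of letters and not a measured binding site.

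Other immediate early genes moved while listed at both times. Egr1, a zinc finger factor induced by the ERK pathway, changed direction. It stood at 23.3 FPKM in WT and 46.9 in S51A before peroxide, at 26.5 and 15.2 at 15 min, and at 32.9 and 304 at 120 min. The S51A level was therefore lowest at 15 min, and the WT level ran from 23.3 to 32.9. Fos kept its direction but the gap narrowed, from 1.48 and 14.8 FPKM before to 3.03 and 8.06 at 15 min. Jun was lower in S51A at both times (52.0 and 25.8, then 58.1 and 27.9 FPKM), and Atf3 was higher (1.55 and 3.18, then 2.13 and 3.73). The longest transcripts of Egr1 and Fos are 4.48 and 2.11 kb, and the median move of the ratio in these length classes was -0.12 and 0.11, against -1.81 for Egr1 and -1.91 for Fos. Both genes were among those with the widest moves, so their gap to the class median is not a test. The part of length in their moves was not tested.

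MAP kinase cascade and stress kinase genes showed more lower entries at 15 min than before, 9 higher and 19 lower against 13 and 12. Of those at least 2-fold apart 2 were higher and 2 lower. Of 9 new entries 8 were lower. They include the ERK and JNK pathway kinase Map3k2 (9.78 FPKM in WT and 6.06 in S51A), the growth kinase Mtor (10.1 and 6.59) and the ribosomal S6 kinases Rps6ka3 (23.8 and 16.7) and Rps6ka2 (5.43 and 3.84). The median of the longest transcripts of these 9 was 5.10 kb. Of them 6 were between 2 and 6 kb, where 51.1% of all new entries were higher. The other 3 were at 6 kb or more, where 7.65% of all new entries were higher. The one higher entry was Map3k10 (6.87 and 8.51 FPKM), picked after its values were seen. In untreated cells 5 genes of the list that had been higher in S51A were not listed at 15 min.

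Nuclear-encoded subunits of oxidative phosphorylation, the respiratory chain and ATP synthase, had 15 new entries, 14 higher and 1 lower. Cox4i1 of cytochrome c oxidase stood at 428 FPKM in WT and 704 in S51A (1.65-fold). Uqcr11 of complex III stood at 161 and 239, Ndufv3 of complex I at 56.1 and 88.6 and Atp5s at 3.18 and 5.10. The lower one was Sdha of complex II, at 101 and 85.6 FPKM, picked after its values were seen. Before peroxide all 52 listed subunits were lower in S51A. At 15 min 24 of these 52 were still lower, 4 were higher and 24 were not listed. All 28 subunits listed at both times had a higher ratio at 15 min, by a median of 0.43, with WT moving by -0.28 and S51A by 0.13. By 120 min 51 were higher and 4 lower. Transcripts under 2 kb made up 11 of the 15 new entries, a class in which 91.9% of all new entries were higher, and Sdha is 2.90 kb long.

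Ribosomal protein and proteasome genes moved likewise, and few of them became higher. Of the 71 cytosolic ribosomal protein genes lower in S51A before peroxide, 49 were still lower, 3 were higher and 19 were not listed at 15 min. The ratio moved up in all 52 listed at both times, by a median of 0.55. The 3 new entries were Rps26 (1499 FPKM in WT and 1951 in S51A), Rpl29 (172 and 232) and Rpl15 (80.4 and 104), all higher and under 2 kb. Ribosomal protein genes have many near-identical pseudogenes, so single values are uncertain. Mitochondrial ribosomal proteins had 5 new entries, all higher, led by Mrps16 (47.5 and 94.4 FPKM, 2.57 kb), and the ratio moved up in 42 of 43. The other 4 have transcripts under 2 kb. Of 28 proteasome subunits lower before, 25 were lower at 15 min and 3 were not listed. The new ones were the core subunit gene Psmb4 (239 and 320) and the lid subunit gene Psmd6 (90.5 and 112), both higher. Their transcripts of 1.18 and 1.39 kb, like those of the 3 ribosomal and 4 mitochondrial ribosomal entries, lie in the class under 2 kb, where 91.9% of all new entries were higher.

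Redox genes split by gene. Hmox1, the NRF2 target that degrades heme, was 234 FPKM in WT and 48.2 in S51A, against 234 and 45.3 before. Of 43 NRF2 targets and regulators 11 were higher and 22 lower at 15 min, with 3 new entries higher and 1 lower. Txnrd1, the cytosolic thioredoxin reductase, was the lower one (149 FPKM in WT and 113 in S51A, 3.62 kb). Blvrb, which reduces biliverdin (12.3 and 17.6), the glutathione transferase genes Mgst1 (17.0 and 22.0) and Gstp1 (57.7 and 69.6) were higher, and these 3 have transcripts under 2 kb. Among antioxidant enzymes 9 were higher and 15 lower, and the mitochondrial reductase Txnrd2 (4.63 and 7.46 FPKM), the peroxiredoxin Prdx2 (377 and 478) and the methionine sulfoxide reductase Msrb1 (27.9 and 34.8) were new and higher, with transcripts of 2.87, 1.61 and 1.21 kb. Txnip, which inhibits thioredoxin, was 4.41 and 38.1 FPKM, against 3.89 and 29.7 before.

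Chaperones of the cytosol gave 1 higher and 4 lower new entries, while 51.5% of all new entries were higher. Hsph1, an HSP110 exchange factor for HSP70, stood at 180 FPKM in WT and 136 in S51A, Bag3 at 34.5 and 27.5 and Hspb6 at 22.2 and 16.7, while Dnajb2 was higher at 9.00 and 11.8. Hspb6 is one of few lower new entries with a transcript under 2 kb (1.98 kb). The 5 new entries have a median of 3.07 kb. In all 9 chaperone genes were higher and 17 lower, but of those at least 2-fold apart 5 were higher and 3 lower. In the endoplasmic reticulum list 15 were higher and 6 lower, and the new entries were 2 higher and 2 lower. The sensors of unfolded protein Ern1 (IRE1, 8.63 FPKM in WT and 4.11 in S51A, 2.10-fold) and Atf6 (10.9 and 7.94) were lower. The chaperone Hspa5 (BiP, 519 and 719) and Creld2, another gene of endoplasmic reticulum stress (54.6 and 68.1), were higher. The sensors have transcripts of 6.95 and 7.25 kb, and the other pair 3.67 and 1.37 kb. At 120 min Ern1 was 7.57 and 2.27 FPKM, and Hspa5 was not listed.

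**Figure D3:**
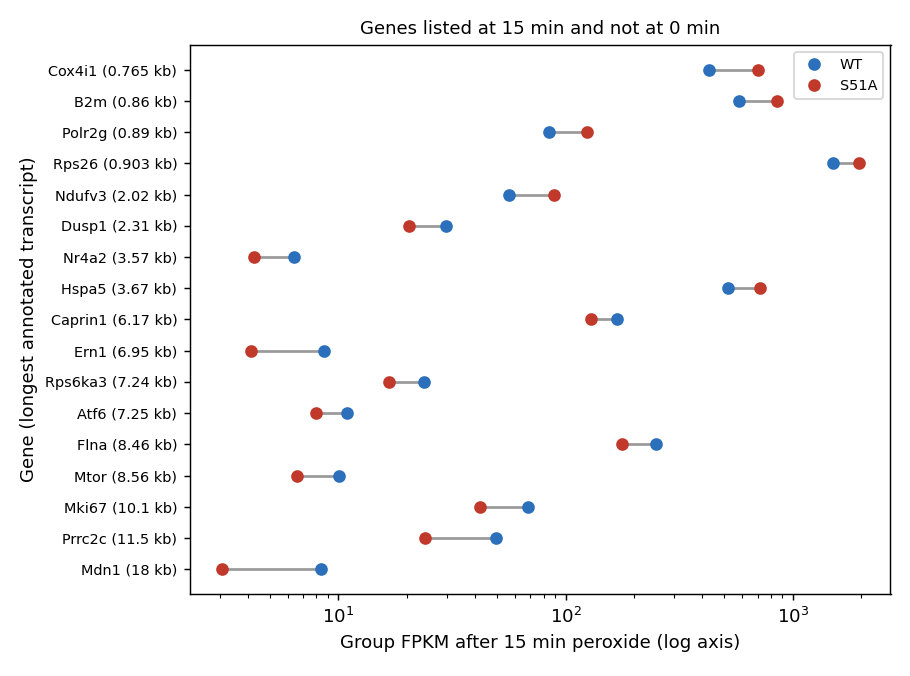
FPKM of WT (blue) and S51A (red) at 15 min on a log axis for 17 genes listed at 15 min and not in untreated cells, ordered by longest transcript from the shortest at the top. The genes were picked from the named ones after their values were seen, so the order of colours is not a test. Cox4i1 stood at 428 and 704 FPKM and Mdn1 at 8.40 and 3.07.

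Genes of DNA damage sensing and repair had 14 new entries, 9 lower and 5 higher, while 51.5% of all new entries were higher. The checkpoint kinase gene Atr stood at 9.58 FPKM in WT and 6.36 in S51A, the BRCA1 partner Bard1 at 7.78 and 5.06 and the mismatch repair gene Msh3 at 15.6 and 10.2. Xpa, which verifies lesions in nucleotide excision repair, was higher at 9.51 and 14.0. Atr has a transcript of 8.10 kb and Xpa one of 1.24 kb. Of the 14, 10 lay between 2 and 6 kb, where 51.1% of all new entries were higher. At 6 kb or more lay 3, where 7.65% of all new entries were higher. In all 15 genes of the list were higher and 26 lower, but 3 and 3 of those at least 2-fold apart. In p53 targets 15 were higher and 13 lower, but 6 and 7 at 2-fold or more and 12 and 13 at 5 FPKM or more. Mdm4 (10.1 and 7.62 FPKM, 7.11 kb) and Rrm2b (6.68 and 5.58, 4.56 kb) were new and lower and Gadd45a (1.22 kb) was new and higher.

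Genes of S phase and mitosis gave 4 higher and 5 lower new entries. Mki67 was 68.1 FPKM in WT and 41.9 in S51A with a transcript of 10.1 kb, and the DNA polymerase alpha gene Pola1 was 47.5 and 34.3. The GINS helicase subunit Gins2 (63.1 and 101) and the centromeric histone Cenpa (77.2 and 115) were higher. The 9 have a median of 3.81 kb. In all 18 genes of the list were higher and 26 lower, but 2 and 1 of those at least 2-fold apart.

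Genes of transcription and RNA handling had new entries in both directions. Of 11 new Mediator and RNA polymerase II entries 5 were higher and 6 lower. Med14 (42.2 FPKM in WT and 27.5 in S51A, 6.96 kb) and Med13 (17.1 and 11.5, 10.5 kb) were lower, as was Med26 (10.5 and 7.11, 3.00 kb). Polr2g (84.4 and 124, 0.890 kb) was higher. Splicing factors were 6 higher and 31 lower, against 5 and 34 before, while 49.9% of all entries were higher at 15 min. Among splicing factors 2 higher and 4 lower ones were new. They include Srrm2 (101 and 53.8, 8.86 kb), a scaffold of nuclear speckles, and the kinase Clk2 (6.96 and 12.1, 3.17 kb). mRNA decay and stress granule genes were 7 higher and 30 lower, against 14 and 28 before, but 3 and 1 among those at least 2-fold apart. Their new entries included Atxn2 (24.6 and 18.5) and Caprin1 (168 and 130) among 4 lower ones and the deadenylase Cnot8 (30.3 and 38.3) as the higher one, and their median length was 5.39 kb. Zfp zinc finger genes were 165 higher and 52 lower, against 174 and 38 before. They had 22 higher and 19 lower new entries, such as Zfp949 (1.34 and 2.79 FPKM). Of those with a length, 2 have transcripts under 2 kb, 28 between 2 and 6 kb and 10 of 6 kb or more.

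Lysosome and autophagy genes had 8 higher and 1 lower new entries, and the list went from 17 higher and 17 lower before to 24 and 16. Tfeb, the transcription factor that drives lysosomal genes, stood at 2.93 FPKM in WT and 4.35 in S51A. The autophagy genes Atg4a (1.13 and 2.11) and Atg101 (19.6 and 26.4) and the cholesterol carrier Npc2 (47.8 and 64.0) were higher too. The longest transcripts of these 9 had a median of 2.35 kb, with 7 between 2 and 6 kb. In the class of 2 to 3 kb 80.3% of all new entries were higher. The single lower entry was Gaa (67.2 and 56.5 FPKM, 3.63 kb), picked after its values were seen.

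In the matrix list 40 were higher and 14 lower, against 45 and 10 before, and the 3 new entries were all lower. They were the laminins Lama5 (10.3 FPKM in WT and 5.82 in S51A, 11.4 kb) and Lamc1 (37.8 and 26.4, 7.62 kb) and the crosslinking enzyme Loxl1 (57.3 and 49.9, 3.30 kb). Of 8 new YAP and TEAD targets 6 were lower, among them Amotl1 (21.0 and 13.7) and Asap1 (40.2 and 26.5). The 8 had a median of 6.08 kb, with 4 between 2 and 6 kb and 4 at 6 kb or more. Of all new entries 51.1% were higher between 2 and 6 kb and 7.65% at 6 kb or more. Igfbp3 was higher at 0.0684 and 1.33 FPKM. The YAP and TEAD list went from 11 higher and 8 lower before to 11 and 15, but 5 and 5 of those at least 2-fold apart. In the contractile list 14 were higher and 9 lower. Filamin A (Flna, 251 and 177) and non-muscle myosin Myh10 (67.6 and 47.8) were new and lower, with transcripts of 8.46 and 7.79 kb, and the light chain Myl6 (340 and 564) was new and higher.

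Interferon-stimulated genes, which act against viruses, were 56 higher and 1 lower at 15 min and 55 and 1 before. The 4 new entries were all higher and under 2 kb. They were B2m (580 FPKM in WT and 855 in S51A), the immunoproteasome subunit Psmb10 (18.3 and 27.5), Oas1b (0.293 and 2.11) and Ifitm2 (172 and 207), and the last 2 have close paralogs. NF-kB and cytokine genes were 29 higher and 10 lower, against 28 and 9 before. New entries were 3 higher and 1 lower, with a median of 2.56 kb. The chemokine Ccl7 was 139 and 164 FPKM at 15 min and 95.7 and 1097 at 120 min.

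In metabolism, cholesterol synthesis genes were 14 higher and 5 lower, with Ebp (18.4 and 22.9) and Sqle (53.1 and 63.6) new and higher, and Hsd17b7 (6.50 and 5.28) new and lower. The median length of the 4 new entries was 4.54 kb. Glycolysis and hypoxia genes were 15 and 15, with the mitophagy receptor Bnip3 (23.8 and 32.7) new and higher and Pfkp (12.2 and 8.34), Pdk3 (56.5 and 47.8) and Epas1 (0.768 and 0.358) new and lower. The 5 new entries had a median of 2.12 kb.

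**Figure D4:**
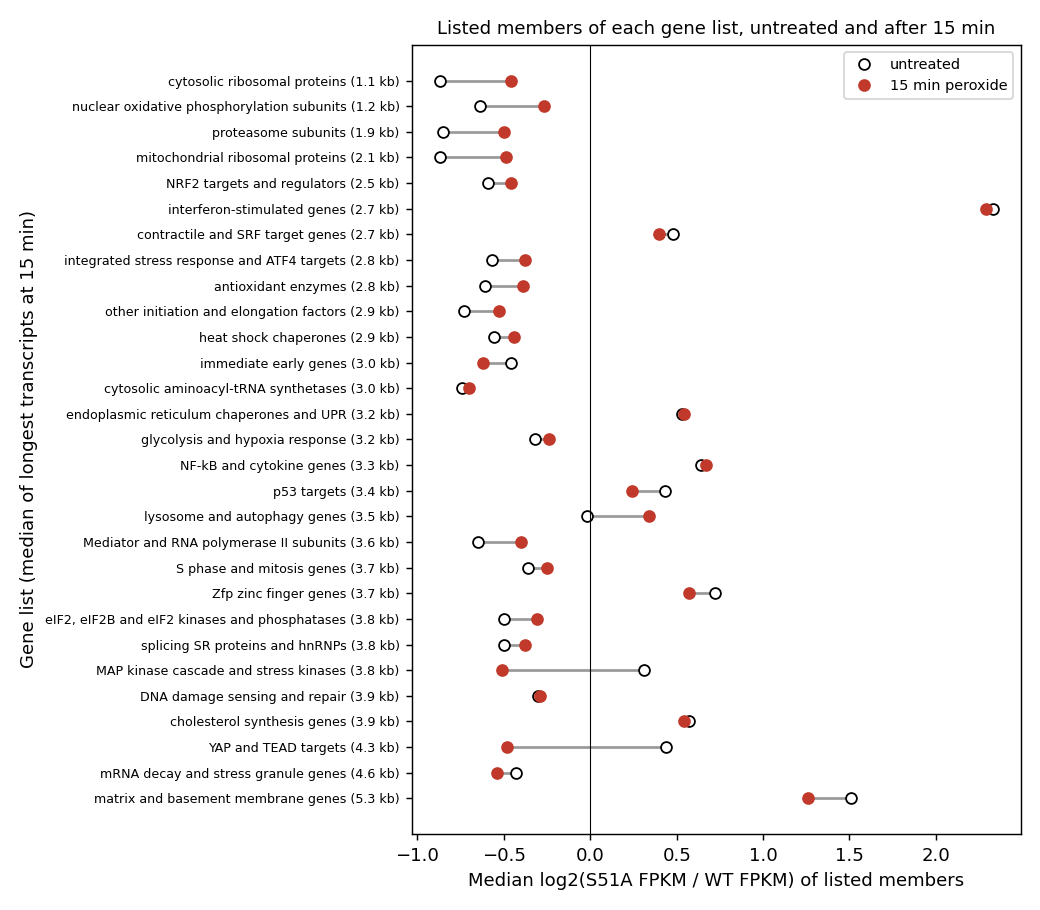
Median log2 ratio of S51A to WT over the listed members of each gene list in untreated cells (open points) and at 15 min (red points), with lists ordered by the median of the longest transcripts of their members at 15 min, shortest at the top. The members listed differ between the times, so a shift mixes changed ratios with changed membership. Interferon-stimulated genes stay near 2.3 and oxidative phosphorylation moves from -0.64 to -0.27.

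A smaller set of new entries had large differences. Of the 892 higher new entries 93 were at least 4-fold apart or had a group at 0, against 19 of the 841 lower ones. Most were low, since 77 of the 93 and 18 of the 19 stayed under 5 FPKM in the line with more. Of the 93, 24 were listed at 120 min. Among genes of at least 5 FPKM the largest was Abi3bp, a matrix protein gene at chr16:56477846-56690135, with 0.0284 FPKM in WT and 20.8 in S51A. Scube3, a secreted signalling protein, stood at 0.186 and 15.0, Adal at 0.0504 and 5.35 and Adra1d, an adrenergic receptor, at 0.261 and 8.28. The interferon-induced Ifi27l2a stood at 0.841 and 20.7 and the ligand Wnt5b at 0.599 and 5.66, with Wnt5b at 0.664 and 6.28 at 120 min. Pakap (0.426 and 14.1) and Palm2 (0.312 and 6.11) share one position in the table and their reads cannot be assigned with certainty. Adgre5 (1.74 and 6.36), Ccdc28b (1.82 and 5.13) and Fam229b (2.31 and 6.50) completed the higher genes beside Rmrp.

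The lower genes named by the same rule differed by less. Mdn1, a giant ATPase of ribosome assembly with a transcript of 18.0 kb, stood at 8.40 FPKM in WT and 3.07 in S51A. Prrc2c (49.5 and 24.1, 11.5 kb), the chromatin remodeler Srcap (22.2 and 11.0, 10.7 kb), the microRNA effector Ago2 (15.8 and 7.94, 13.8 kb) and the cell cycle kinase Cdk6 (11.2 and 5.66, 11.5 kb) were close to 2-fold lower. Shroom4 (5.35 and 2.31), Klhl11 (18.0 and 8.94), Mipol1 (6.54 and 3.29), Gm12669 (61.8 and 26.9) and E030011O05Rik (10.6 and 3.58) were also among them. Gm12669 is short, at 1.01 kb. All of Mdn1, Prrc2c, Srcap, Ago2, Cdk6 and Klhl11 were lower again at 120 min, such as Mdn1 at 5.50 and 1.65 FPKM.

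New entries with a group listed at 0 were 42 with WT at 0 and 3 with S51A at 0. Igfbp2, an IGF binding protein at chr1:72824480-72852471, was 172 FPKM in S51A and listed at 0 in WT. Dhrs4 (16.7), the pyroptosis effector Gsdmd (12.5), the neurotrophin receptor Ntrk3 (10.7) and Hoxd8 (6.68) were listed at 0 in WT likewise, and Mir2861 stood at 88.0 FPKM in WT and was listed at 0 in S51A. None of these 6 was listed at the other times. A listed 0 can be a failed estimate, and a gene of 172 FPKM in 1 line could be as different without peroxide, so their absence from the untreated table does not show a change.

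Only 118 of the 6374 entries listed at both times (1.85%) changed direction, 31 to higher and 87 to lower in S51A, and across 6301 genes without a group at 0 the ratios had an r of 0.97. The 31 had a median longest transcript of 1.13 kb (27 with a length, 0.123 to 4.23 kb) and the 87 one of 9.51 kb (85 with a length, 4.45 to 23.5 kb). None of the 87 was 2-fold lower at 15 min, and 4 of the 31 were 2-fold higher. Beside Egr1, the widest moves to lower were of the ubiquitin ligase Cbl, from 6.06 FPKM in WT and 9.00 in S51A to 11.2 and 5.98, of Xrn1, the 5′ to 3′ exonuclease, from 5.82 and 8.63 to 9.45 and 6.06, and of Tram2 from 5.39 and 9.25 to 10.1 and 7.31.

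The moves to higher were led by Fabp4, a fatty acid carrier of fat cells and macrophages, from 30.3 FPKM in WT and 16.6 in S51A to 9.06 and 22.0. Haptoglobin (Hp) went from 8.69 and 4.41 to 3.07 and 5.94. In both the larger part was a lower WT level at 15 min. In WT, Fabp4 was at 30.9 FPKM again at 120 min, so its 15 min value stands apart from both other times. Other markers of these cell types, looked up after the values were seen, were also lower in WT at 15 min where listed. Lpl, the lipoprotein lipase gene, was 3.05, 0.920 and 3.23 FPKM in WT at 0, 15 and 120 min and 0.183, 0.172 and 1.64 in S51A. The macrophage lysozyme gene Lyz2 was 2.11 FPKM in WT and 0.476 in S51A before, and 0.415 and 0.920 at 15 min. Adipoq (1.80 and 0.135) and Cd68 (1.97 and 1.11) were listed only before peroxide, Csf1r only at 120 min (0.758 and 0.165), and Ptprc and Adgre1 at no time. The part of such cells in these values was not tested.

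**Figure D5:**
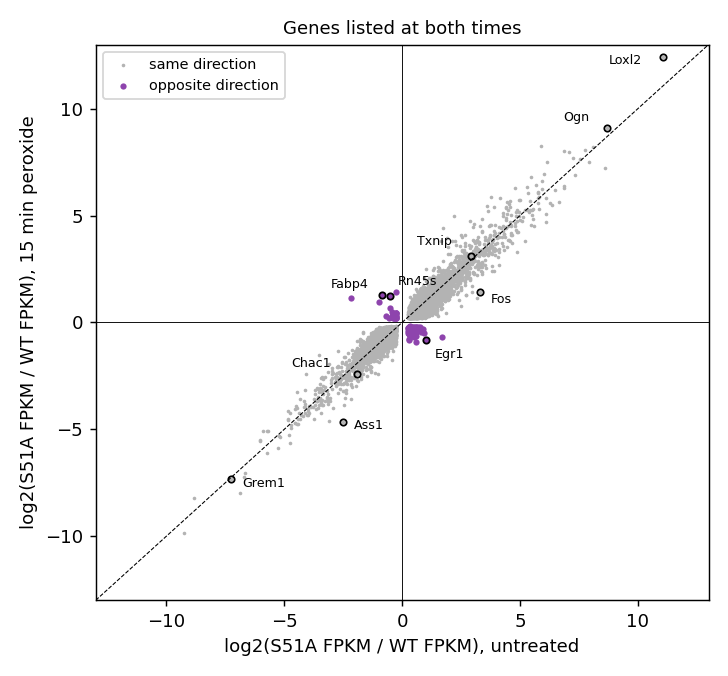
Log2 ratio of S51A to WT in untreated cells (horizontal) and at 15 min (vertical) for genes listed at both times with no group at 0. Purple points are genes of opposite direction, grey points genes of the same direction, and the dashed line marks equal ratios. Most points lie along the line, and Egr1, Fabp4 and Rn45s lie in the quadrants of opposite sign.

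Among genes that kept their direction, several that WT expressed little moved further apart. Lbp, which binds bacterial lipopolysaccharide, was 0.387 FPKM in WT before and 0.152 at 15 min, with 6.96 and 8.51 in S51A. Clu (0.727 and 0.299 in WT), Sepp1 (1.14 and 0.454), Xaf1 (0.198 and 0.0902) and Steap4 (0.328 and 0.133) did likewise, with S51A levels between 5.39 and 24.3 at either time. This was not general. Of 76 genes at least 16-fold higher in S51A before and of 5 FPKM or more, the WT level was lower at 15 min in 40 and higher in 36. In the other direction, Ass1 (argininosuccinate synthase) went from 8.69 and 1.55 FPKM in WT and S51A to 6.92 and 0.277, and the kinase Hipk2 from 6.45 and 4.79 to 11.0 and 3.27. Gfod1 (9.25 and 2.41, then 14.0 and 1.80) and Rgs4 (0.0501 and 19.6, then 0.139 and 20.5) also moved toward WT, and Gm2694 (9.13 and 1.40, then 5.74 and 2.28) toward S51A.

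Structured RNAs without a regular poly(A) tail were present at levels that varied with line and time. The ribosomal RNA precursor Rn45s was 48.2 FPKM in WT and 34.1 in S51A before, 35.5 and 83.3 at 15 min and 55.3 and 111 at 120 min. The short entry Mir6236 was 13125 and 10885, then 10809 and 28924, then 18306 and 42055. Rmrp, the RNA of RNase MRP, was new at 15 min with 8.06 and 35.0 FPKM, and was 48.8 and 89.3 at 120 min. Rpph1, the RNA of RNase P, which was named outside the rule for named genes, was listed only before peroxide, at 83.3 and 10.9. In S51A the levels of Rn45s and Mir6236 were above those before at both later times. Such RNAs depend on poly(A) selection, and their part in the gradient with transcript length was not tested.

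Of the 1733 new entries 1039 (60.0%) were listed at 120 min, 1029 of them in the direction of 15 min and 10 in the other. The share was 471 (52.8%) of the higher and 568 (67.5%) of the lower entries. Of the entries listed both before and at 15 min, 3828 (60.1%) were listed at 120 min, 238 in the other direction from 15 min. For short subunits the difference was wider later. Cox4i1 was 545 FPKM in WT and 1675 in S51A at 120 min, Rps26 was 2048 and 5078, and Psmb4 was 280 and 815. The long transcripts were wider too, with Srrm2 at 71.5 and 35.3, Mki67 at 39.9 and 15.5 and Mtor at 8.11 and 3.73. Dusp1 was one of the few in the other direction, at 13.5 FPKM in WT and 28.4 in S51A, and Bag3 was another, at 28.4 and 45.9.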

How the data were processed

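Each of the 3 deposited tables gives, per the file headers, log2 FPKM for WT and S51A, their log2 ratio and a q-value. The authors had combined the samples before deposit. STAR, Cufflinks, Cuffdiff and the mm10 build appear in the submitters' processing notes, with no version. In the deposited tables every entry is marked significant, and a log2 FPKM of -10 stands for 0. One further numeric column per table (1 in each) was not used.

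FPKM, folds and differences of the log2 values were computed with Python 3.11.15 and pandas 2.3.3. No test across samples could be made, and depth is unknown. Entries were matched between tables by symbol. Entries with several, repeated or date-like symbols were left out of lists and named genes, which left 8289 at 15 min. Transcript lengths came from GENCODE M21 for 8020 entries at 15 min (96.5%). Table starts had 1 added, after which 47.7% of 7955 matched genes had the RefSeq start, against 4.01% without. The counting was tested on simulated tables.

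The genes, the 31 lists and the alternatives were chosen with earlier results of these data known. Named are the largest new entries (12 per direction of at least 5 FPKM, and 6 with a group at 0), up to 4 new members of each list, 8 of opposite direction, 6 per direction that moved most, 6 per direction with the largest ratio, and a fixed set of stress genes. Genes of other origin are marked where named. Some genes that the rule names are not reported here. Alternatives were size, level and q-value thresholds, symbol filters, matching by position, and, added after seeing the data, the symbol range and other measures of length.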

Additional observations from a re-analysis of the deposited data

How the results depend on the processing

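No paired analysis was possible because the deposited tables hold 1 value per line and time, and for the same reason no replicate could be left out and the planned fit with a replicate block was not run. With at least a 2-fold difference, the 8308 entries at 15 min became 2706 (1680 higher, 1026 lower), the 1934 not listed in untreated cells became 308 (225 higher, 83 lower) and the 118 of opposite direction became 4. The percent higher among new entries became 81.2 under 2 kb and 41.4 at 6 kb or more. At 5 FPKM or more in the higher line these were 95.5 and 4.81. A q-value of at most 0.01 left 74 entries of opposite direction. With the median transcript length in place of the longest, and as many genes at each end, the percent higher was 65.5 for the shortest and 18.1 for the longest, and with coding length 86.9 and 4.53. Both were added after seeing the data, as was leaving out the symbols before Aacs, which gave the 1733 new entries. Matching by position gave 1806 new entries and 125 of opposite direction, and centring the ratios gave 175. Of 62 counts of lists by direction, 57 moved by over 1.5 times with at least a 2-fold difference and 3 with at least 5 FPKM. Among the 31 lists, the balance of higher against lower turned in 5 with at least a 2-fold difference (eIF2 control, heat shock, p53, S phase and mitosis, mRNA decay). It became even in the DNA damage (3 and 3), MAP kinase (2 and 2), Mediator (1 and 1), YAP (5 and 5), antioxidant (4 and 4) and tRNA synthetase (1 and 1) lists. The cytosolic ribosomal and splicing lists had no such member. The glycolysis list, 15 and 15 without this threshold, had 5 higher and 8 lower. With at least 5 FPKM it turned in 1 (p53). The cause of these shifts, beyond fewer entries, was not tested. The tables limit every statement to called genes, and precision per gene rests on the authors' q-value alone.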
